A study of Mus musculus with 12 samples.

Results

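Hematopoietic stem and progenitor cells (HSPCs) of the bone marrow were profiled in mice on a normal diet (ND) and on a high salt diet (HSD), without and after intracerebral hemorrhage (ICH), and the subject here is whether the diet effect was the same in both settings. All 12 libraries of the series in its 4 groups entered, with 3 libraries in each group. The measure is the interaction, the difference HSD ICH minus ND ICH less the difference HSD minus ND on the log2 scale, over the 10084 of 20792 listed genes that exceeded 10 CPM (read counts scaled to library size with TMM factors) in at least 3 libraries. A positive interaction means that HSD stood higher relative to ND after ICH than it did without ICH, and a negative one that it stood lower.

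The mice were WT C57BL/6J males, aged 6 weeks when the diets began. ND mice ate chow with 0.5% NaCl, and HSD mice ate chow with 8% NaCl and drank water with 1% NaCl, for 8 weeks. ND and HSD mice had no surgery. ND ICH and HSD ICH mice received the same diets, then an injection of their own blood into the brain, and their HSPCs were taken on day 7. All operated mice ate ND chow after the injection, so that in the HSD ICH group the diet had ended 7 days before sampling. The surgery, the time after it and the return to ND cannot be told apart, since they came together in the operated groups. No group had a sham operation, and none returned to ND without surgery. The sort kept Lin-CD127-c-kit+Sca-1+ cells of the bone marrow. Each library of ND and HSD pooled 3 animals, and the pool size of the ICH libraries was not given in the sources used here.

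HSPCs give rise to all blood cells. The stem cells among them mostly rest outside the cell cycle, and infection, bleeding and other demands push HSPCs into division and toward granulocytes and monocytes. Immediate early genes such as Nr4a1, Fos and Egr1 are switched on within minutes of a stimulus without new protein synthesis. Dividing cells first copy their DNA in S phase, when histone genes and replication enzymes are transcribed, and then turn on the G2/M genes that build the spindle and separate the chromosomes. The unfolded protein response is the set of chaperones and degradation factors that cells make when proteins misfold in the endoplasmic reticulum.

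Reads in the listed genes numbered from 8678304 to 15469971 in libraries without ICH and from 12286357 to 27491973 after ICH. The highest number belonged to HSD ICH replicate 3, which also stood apart in its expression, at 40.2 on the first principal component against 15.2 and 15.9 for the other HSD ICH libraries and 7.78 to 15.5 for ND ICH. The counts of the gene lists and the interactions of the genes described below are therefore given with and without it. The number of listed genes at 0 ran from 1393 to 1755 in libraries without ICH and from 2 to 29 in those after ICH, so the 2 diet effects come from sets of libraries that differ in this respect. Kit was at 329 to 487 CPM and Cd34 at 215 to 392 CPM in all libraries, whereas Ly6a, which encodes the Sca-1 of the sort, was at only 2.42 to 6.72 CPM. Cd3e, Cd3d and Ly6g are not listed. Marrow macrophage genes (37 listed) summed to 421 to 635 CPM in 10 libraries, and to more in ND replicate 1 (1279.7 CPM) and HSD replicate 2 (2232 CPM).

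No gene differed in its diet effect past an adjusted p of 0.05. By limma, 0 of 10084 genes (0.0%) had an interaction at that threshold, and the smallest adjusted p was 0.813. At an unadjusted p under 0.05 stood 496 genes (4.92%), 287 of them positive (2.85%) and 209 negative (2.07%). The split leaned on the scaling, with 226 positive and 249 negative after RLE scaling and 220 and 217 after scaling to equal sums. Past the study's own threshold, an unadjusted p under 0.05 with a log2 value of at least 1 in size, stood 28 genes (0.278%), 16 positive and 12 negative. Most of the positive ones are predicted genes or pseudogenes. Without HSD ICH replicate 3 the number past this threshold was 9. No gene had an adjusted interaction p under 0.05 by edgeR's quasi-likelihood test or by DESeq2 on the recovered reads either, where 534 and 545 genes had an unadjusted p under 0.05.

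The precision of the interaction set what could be seen. The median standard error was 0.18 on the log2 scale, and the median half-width of the 95% interval was 0.38. For 9204 genes (91.3%) the interval lay within a log2 value of 1 on either side of 0, and for 4467 (44.3%) within 0.5. So a 2-fold difference between the diet effects lay outside the interval of most genes, whereas smaller differences were often not detectable with 3 libraries a group.

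**Figure D1:**
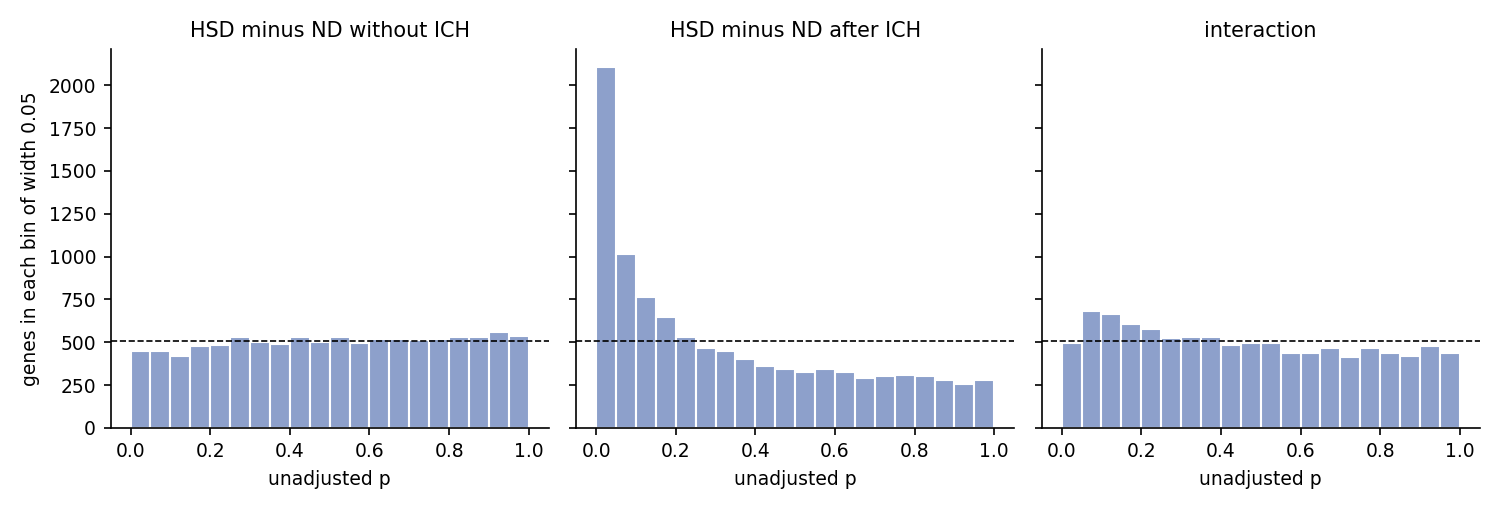
Unadjusted p values of the 10084 genes in bins of width 0.05 (horizontal axis) against the number of genes in each bin (vertical axis), for the diet effect without ICH, the diet effect after ICH and the interaction. The dashed line marks 504 genes per bin, an even spread; the lowest bin holds 451, 2105 and 496 genes.

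The diet effects themselves were unequal in spread. Across genes, the SD of the log2 difference between HSD and ND was 0.15 without ICH and 0.27 after ICH, or 0.20 after ICH without HSD ICH replicate 3. Without ICH, 0 genes (0.0%) passed an adjusted p of 0.05 in the fit of all libraries, and its smallest adjusted p was 0.192. An unadjusted p under 0.05 was found for 278 genes higher (2.76%) and 173 genes lower on HSD (1.72%). After ICH, 56 genes (0.555%) passed, with an unadjusted p under 0.05 for 1471 higher (14.6%) and 634 lower genes (6.29%). RLE scaling turned the balance of these genes, to 186 higher and 250 lower without ICH and to 905 higher and 984 lower after ICH. Without HSD ICH replicate 3, 18 genes passed an adjusted p of 0.05 after ICH.

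The directions were shared more often than not. Of the 10084 genes, 6447 (63.9%) had the same sign in both diet effects, and the 2 effects, which come from separate libraries, correlated across genes with a Pearson r of 0.39 and a Spearman rho of 0.33 (0.41 and 0.34 without HSD ICH replicate 3). Genes are not independent replicates, so no p is attached. Of the 36 genes that rose on HSD after ICH past an adjusted p of 0.05, all 36 also had a higher mean on HSD without ICH, where 59.9% of all genes did, and 28 of them at an unadjusted p under 0.05. Their median log2 difference was 0.54 after ICH and 0.27 without. Of the 20 genes that fell, 19 were also lower on HSD without ICH, where 40.1% of all genes were, with medians of -1.07 after ICH and -0.40 without. The exception was Clnk. When HSD ICH replicate 3 was left out, 6 higher and 12 lower genes passed, and all 18 had the same direction without ICH.

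Groups that did not overlap told the same. HSD and ND libraries did not overlap both without ICH and after ICH in 372 genes in the same direction (3.69%), 265 higher and 107 lower, and in 48 genes in opposite directions (0.476%). Of the 191 genes with an unadjusted p under 0.05 in both diet effects, 187 had the same direction and 4 the opposite one. The 496 genes with an unadjusted interaction p under 0.05 are fewer than the 504 that an even spread of p values would give, and choosing genes by a large interaction favors opposite signs. In 361 of them the 2 diet effects had opposite signs, in 130 the sign was shared and the effect larger after ICH, and in 5 it was shared and larger without ICH. All 496 kept their sign without HSD ICH replicate 3, and 268 kept an unadjusted p under 0.05.

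**Figure D2:**
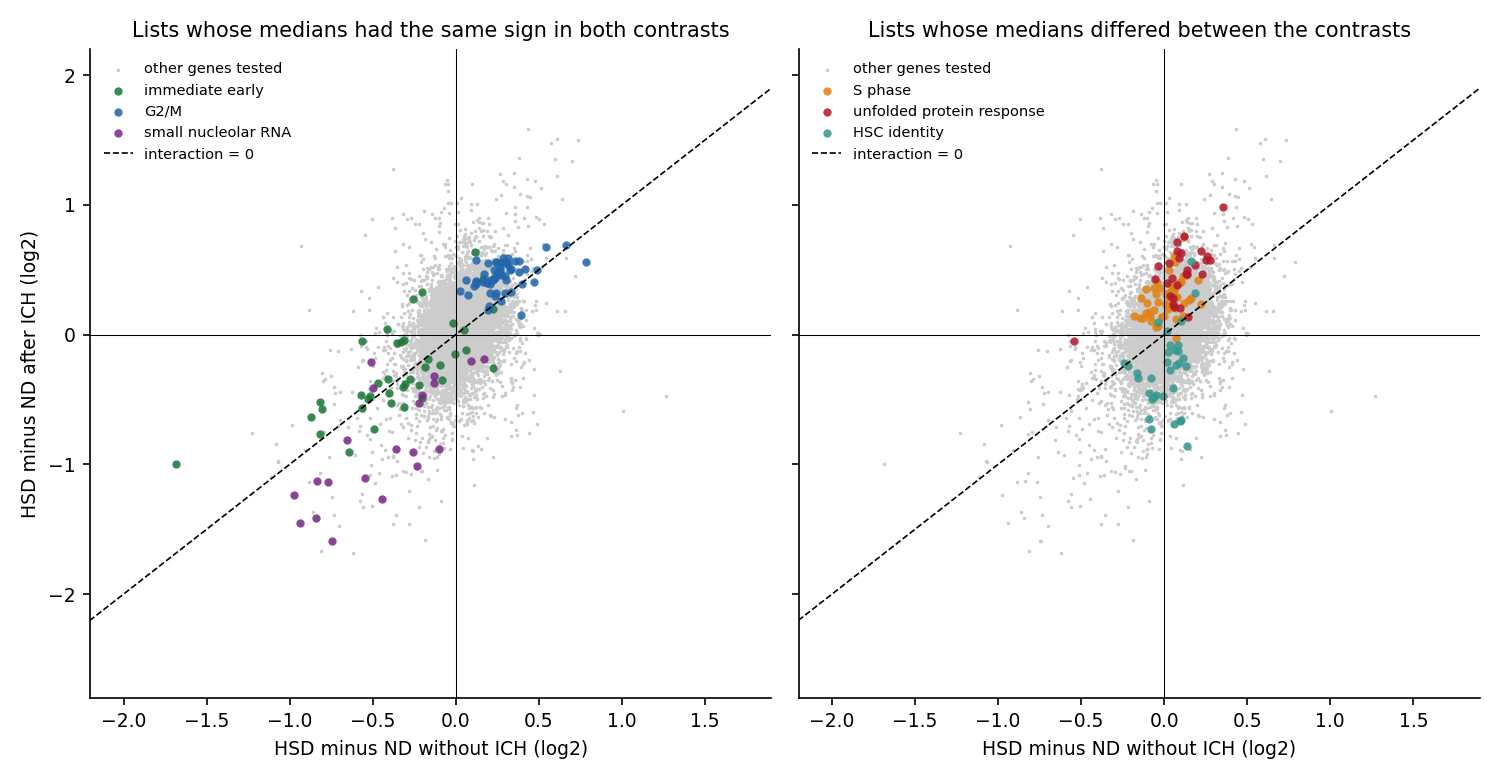
Each point is one of 10084 genes, with the log2 difference HSD minus ND without ICH on the horizontal axis and after ICH on the vertical axis, and genes on the dashed line have no interaction. In the left panel immediate early genes (n = 40) and small nucleolar RNAs (n = 21) lie mostly at the lower left and G2/M genes (n = 55) in the upper right, and in the right panel S phase (n = 54) and unfolded protein response genes (n = 28) sit above the line near 0 on the horizontal axis, with HSC identity genes (n = 33) below it.

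Immediate early genes were lower on HSD in both settings, by about as much. Of 40 tested, 34 had a lower mean on HSD without ICH and 32 after ICH. At an unadjusted p under 0.05, 15 were lower without ICH and 18 after ICH, or 9 after ICH without HSD ICH replicate 3. Over all genes, 1.72% were lower without ICH and 6.29% after ICH. The 2 that were higher after ICH at that threshold, Srf and Cebpd, are named for that count after their values were seen. The median was -0.32 without ICH and -0.35 after ICH (-0.22 without that library). The median interaction was 0.02, or 0.08 without HSD ICH replicate 3, beside 0.04 over all genes. Interactions were positive in 20 genes and negative in 20, and only Rhob (2.5%) reached an unadjusted p under 0.05, beside 4.92% of all genes. Since earlier work on these libraries drew attention to this list, its direction is not independent evidence.

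Nr4a1, an orphan nuclear receptor of the immediate early class that restrains inflammatory genes in myeloid cells, was lower on HSD in both settings. It was at 12.3, 15.1 and 14.8 CPM in ND, at 4.88, 4.42 and 2.96 CPM in HSD, at 5.39, 6.03 and 5.29 CPM in ND ICH and at 3.76, 2.81 and 1.48 CPM in HSD ICH. HSD libraries did not overlap ND libraries in either setting, and ND ICH libraries lay far below ND libraries. The log2 difference between the diets was -1.69 without ICH and -0.999 after ICH (adjusted p = 0.104 after ICH, limma). The interaction was 0.69 (SE 0.375, unadjusted p = 0.0897, limma), and 0.996 without HSD ICH replicate 3 (unadjusted p = 0.00517, limma). Only the ND libraries exceeded 10 CPM, and all others lay between 1.48 and 6.03 CPM. Nr4a1 thus passed the filter through its highest group alone, which favors a fall on HSD without ICH and a positive interaction. Its values are therefore no independent support for either. Rhob, an endosomal GTPase induced like an early gene, had 46.8 ± 2.95 CPM in ND and 35.2 ± 5.38 CPM in HSD, against 43.3 ± 1.75 CPM in ND ICH and 44.8 ± 5.64 CPM in HSD ICH (SD, n = 3 each). Its interaction was 0.46 (SE 0.168, unadjusted p = 0.0177, limma), or 0.36 without HSD ICH replicate 3. The groups of Rhob overlapped only after ICH.

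G2/M genes were higher on HSD in both settings, with a larger median difference after ICH. All 55 tested had a higher mean on HSD without ICH and all 55 after ICH. At an unadjusted p under 0.05 this held for 35 without ICH and 51 after ICH, beside 2.76% and 14.6% of all genes. The medians were 0.26 and 0.45, and the median interaction was 0.21, or 0.15 without HSD ICH replicate 3, against 0.04 and 0.02 over all genes. In 6 genes (10.9%) the interaction was positive at an unadjusted p under 0.05, beside 2.85% of all genes. No gene of the list stood at that threshold without HSD ICH replicate 3, where 1.71% of all genes were positive and 1.53% negative. Nor did any without HSD replicate 1, after RLE scaling or after sum scaling. The count was 1 without ND replicate 1 or ND replicate 3, and 3 without ND replicate 2, HSD replicate 2 or ND ICH replicate 1. Over all genes, 167 to 297 were positive in these fits, against 287 with all libraries. Cdk1, the kinase that drives entry into mitosis, was at 40.7, 35.0 and 39.3 CPM in ND, 47.3, 44.4 and 51.4 CPM in HSD, 37.9, 34.0 and 36.6 CPM in ND ICH and 56.0, 52.6 and 55.3 CPM in HSD ICH. All HSD libraries lay above all ND libraries in each setting. It rose by 0.59 on the log2 scale after ICH (adjusted p = 0.0188, limma), the difference without ICH was 0.31, and the interaction was 0.28 (95% interval 0.01 to 0.54). The interaction was 0.27 without HSD ICH replicate 3 (unadjusted p = 0.0633, limma), and the difference after ICH still passed (adjusted p = 0.0424, limma). Foxm1, the transcription factor of the G2/M program, was higher by 0.24 without ICH and rose by 0.56 after ICH (adjusted p = 0.0281, limma), with an interaction of 0.32 (0.30 without HSD ICH replicate 3). Anln, which builds the ring that divides cells, had log2 differences of 0.27 and 0.56 (adjusted p = 0.0188 after ICH, limma) and an interaction of 0.28 (0.23 without that library). The difference after ICH of Foxm1 and Anln did not pass without HSD ICH replicate 3 (adjusted p = 0.0728 and 0.0598, limma).

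Small nucleolar RNAs, which guide the modification of ribosomal and spliceosomal RNA and mostly sit in introns of host genes, were lower on HSD in both settings, and further so after ICH. Of 118 listed, 21 passed the filter, and these are the abundant ones. At an unadjusted p under 0.05, 12 were lower on HSD without ICH and 17 after ICH, beside 1.72% and 6.29% of all genes, and none was higher. The medians were -0.44 and -0.88. The median interaction was -0.36, and -0.41 without HSD ICH replicate 3. In 7 of 21 the interaction had an unadjusted p under 0.05 and was negative, beside 2.07% of all genes. Without HSD ICH replicate 3 this held for 8, beside 1.53% of all genes. Over all alternatives on the log2 scale, including each library left out, this count stayed between 6 and 9.

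Snora23 had 48.8, 48.8 and 49.6 CPM in ND, 37.3, 38.3 and 39.0 CPM in HSD, 39.0, 45.1 and 38.0 CPM in ND ICH and 23.2, 17.1 and 25.9 CPM in HSD ICH. It fell by 0.88 on the log2 scale after ICH (adjusted p = 0.0188, limma), the difference without ICH was -0.36, and the interaction was -0.52 (95% interval -0.91 to -0.14, unadjusted p = 0.0119, limma), or -0.65 without HSD ICH replicate 3. HSD libraries lay below ND libraries in each setting. Snord17 had log2 differences of -0.26 without ICH and -0.91 after ICH (interaction -0.65, SE 0.200, or -0.56 without HSD ICH replicate 3), and Snora74a of -0.24 and -1.01 (interaction -0.77, SE 0.247, or -0.68). Scarna10 differed from them in that it did not separate without ICH, with 188 ± 13.6 CPM in ND and 175 ± 10.8 CPM in HSD, against 235 ± 53.6 CPM in ND ICH and 125 ± 11.5 CPM in HSD ICH (SD, n = 3 each). Its interaction was -0.78 (unadjusted p = 0.00134, limma), or -0.82 without HSD ICH replicate 3. Scarna10 overlaps the gene Gm28967, so the reads of both cannot be told apart. Rn7sk, the 7SK RNA that holds back the elongation kinase of RNA polymerase II, was at 12639 ± 737 CPM in ND and 13036 ± 1081 CPM in HSD, and at 16483 ± 6840.0 CPM in ND ICH and 8553 ± 690.1 CPM in HSD ICH. Its diets differed little without ICH, its interaction was -0.92 (-0.98 without HSD ICH replicate 3), and ND ICH replicate 2 alone held 24338 CPM. Recovery of such short RNAs depends on the RNA isolation and the library kit, and whether these steps moved with the groups was not tested.

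S phase genes were higher on HSD after ICH in 53 of 54 cases, and without ICH in 34. Of 54 tested, 0 were higher or lower on HSD at an unadjusted p under 0.05 without ICH, and 29 (53.7%) were higher after ICH, beside 14.6% of all genes, or 17 without HSD ICH replicate 3. The medians were 0.03 without ICH and 0.28 after ICH. Interactions were positive in 53 of 54 genes, with a median of 0.27, and 8 (14.8%) had an unadjusted p under 0.05, beside 2.85% of all genes. Without HSD ICH replicate 3 the median was 0.15 and the count 6, beside 1.71% of all genes. Without ND replicate 1 and HSD replicate 2, the libraries highest in macrophage genes, the median was 0.21 and the count 1, where 141 of all genes were positive. The count was 12, 14 and 21 without HSD replicate 3, ND ICH replicate 3 and HSD ICH replicate 1. Over all genes, 356, 287 and 536 were positive in these last fits, against 287 with all libraries. In the level of the list, shown by library in the plot of list levels, ND ICH libraries lay at -0.35 to -0.19 relative to the ND mean on the log2 scale, HSD libraries at -0.03 to 0.09 and HSD ICH libraries at -0.11 to 0.20. The list therefore stood lower in ND ICH than in the other 3 groups.

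Prim1, which makes the RNA primers of replication, had 49.1, 45.3 and 43.9 CPM in ND, 42.4, 42.2 and 43.5 CPM in HSD, 37.7, 43.6 and 33.6 CPM in ND ICH and 45.1, 47.4 and 54.6 CPM in HSD ICH. HSD libraries lay below ND libraries without ICH and above them after it. The interaction was 0.46 (95% interval 0.14 to 0.78, unadjusted p = 0.00794, limma), or 0.38 without HSD ICH replicate 3. Cdc45, a part of the replicative helicase, was at 31.2 ± 1.77 CPM in ND, 32.6 ± 2.34 CPM in HSD, 26.7 ± 1.48 CPM in ND ICH and 40.1 ± 8.03 CPM in HSD ICH (SD, n = 3 each). Its interaction was 0.50 (SE 0.173), or 0.34 without HSD ICH replicate 3. Rrm2, the subunit that limits the supply of deoxynucleotides, had an interaction of 0.63 (0.39 without HSD ICH replicate 3), and Mcm10, which loads the replication machinery, one of 0.45 (0.33). Among genes outside the list, E2f8, a repressor of the E2F family, rose by 0.51 on the log2 scale after ICH (adjusted p = 0.0335, limma) and had a difference of 0.04 without ICH and an interaction of 0.47. Its rise after ICH did not pass without HSD ICH replicate 3 (adjusted p = 0.0784, limma), and its interaction was then 0.37. Brip1 and Fancd2, both of the repair of crosslinked DNA, had interactions of 0.49 and 0.54 (unadjusted p = 0.00342 and 0.00461, limma), or 0.38 and 0.47 without that library.

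Many S phase promoters carry an E2F site, and the sequences are shown to let the motif be seen in 3 of them. TTTGGCGC and TTTCCCGC were searched on both strands in RefSeq windows of 300 bases, 250 before the start and 50 from it on, in GRCm38.p6. Of 54 tested genes, 41 had a window and 13 of these (31.7%) held a match, beside 486 of 27025 genes with a window (1.798%). The median interaction was 0.23 in genes with a match and 0.29 in those without. The 3 windows below belong to the genes with a match and the smallest interaction p, and capitals mark the match. They lie at chr8:95633309-95633608 (plus strand), chr11:98907901-98908200 (plus strand) and chr8:122567765-122568064 (plus strand), with interactions of 0.47 for Gins3, 0.32 for Cdc6 and 0.36 for Cdt1.
Gins3: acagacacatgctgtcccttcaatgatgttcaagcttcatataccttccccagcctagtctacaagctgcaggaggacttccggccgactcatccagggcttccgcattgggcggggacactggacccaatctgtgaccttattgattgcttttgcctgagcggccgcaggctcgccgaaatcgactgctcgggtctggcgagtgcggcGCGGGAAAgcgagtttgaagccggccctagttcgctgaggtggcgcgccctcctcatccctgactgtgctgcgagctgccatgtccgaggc
Cdc6: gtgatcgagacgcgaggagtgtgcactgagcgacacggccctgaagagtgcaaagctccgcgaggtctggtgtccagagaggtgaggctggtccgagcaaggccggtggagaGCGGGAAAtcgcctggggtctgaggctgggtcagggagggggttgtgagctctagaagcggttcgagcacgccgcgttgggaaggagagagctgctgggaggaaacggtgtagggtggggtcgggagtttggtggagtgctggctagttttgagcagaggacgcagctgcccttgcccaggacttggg
Cdt1: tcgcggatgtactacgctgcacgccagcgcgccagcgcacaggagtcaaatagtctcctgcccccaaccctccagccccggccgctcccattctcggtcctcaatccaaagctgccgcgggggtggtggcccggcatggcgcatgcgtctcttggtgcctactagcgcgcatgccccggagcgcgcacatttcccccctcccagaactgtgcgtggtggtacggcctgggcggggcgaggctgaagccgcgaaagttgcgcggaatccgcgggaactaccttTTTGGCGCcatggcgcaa
Gins3 belongs to the replicative helicase, and Cdc6 and Cdt1 load it on DNA. Their unadjusted interaction p values were 0.0540, 0.0709 and 0.0729 (limma), and their interactions without HSD ICH replicate 3 were 0.38, 0.17 and 0.24.

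Replication histones, whose transcripts accumulate in S phase, behaved likewise but less evenly. Of 58 tested, 4 were higher on HSD without ICH and 28 after ICH at an unadjusted p under 0.05, and none was lower. Over all genes, 2.76% were higher without ICH and 14.6% after ICH. The medians were 0.12 and 0.33, and the median interaction was 0.15, or 0.11 without HSD ICH replicate 3. In 7 genes (12.1%) the interaction was positive at an unadjusted p under 0.05, beside 2.85% of all genes. Without HSD ICH replicate 3 this held for 3, beside 1.71% of all genes. With 1 library left out the count ran from 2, without HSD replicate 1 or ND ICH replicate 2, to 12, without HSD ICH replicate 1 or 2. Over all genes, 223 and 258 were positive in the first of these fits and 536 and 499 in the last, against 287 with all libraries. H3c3, a histone H3 gene, was at 149, 136 and 119.6 CPM in ND, 134, 136 and 147 CPM in HSD, 128, 102 and 132 CPM in ND ICH and 167, 227 and 206 CPM in HSD ICH. The groups overlapped without ICH, and all HSD ICH libraries lay above all ND ICH libraries. H3c3 rose by 0.73 on the log2 scale after ICH (adjusted p = 0.0274, limma), its difference without ICH was 0.05, and its interaction was 0.68 (95% interval 0.29 to 1.08, unadjusted p = 0.00261, limma). The interaction was 0.65 without HSD ICH replicate 3, and the rise after ICH did not pass (adjusted p = 0.0693, limma). For H3c1 the interaction was 1.05 (95% interval 0.41 to 1.69), or 0.84 without HSD ICH replicate 3. Histone genes of a class are near copies of each other, so the share of reads of each is uncertain.

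**Figure D3:**
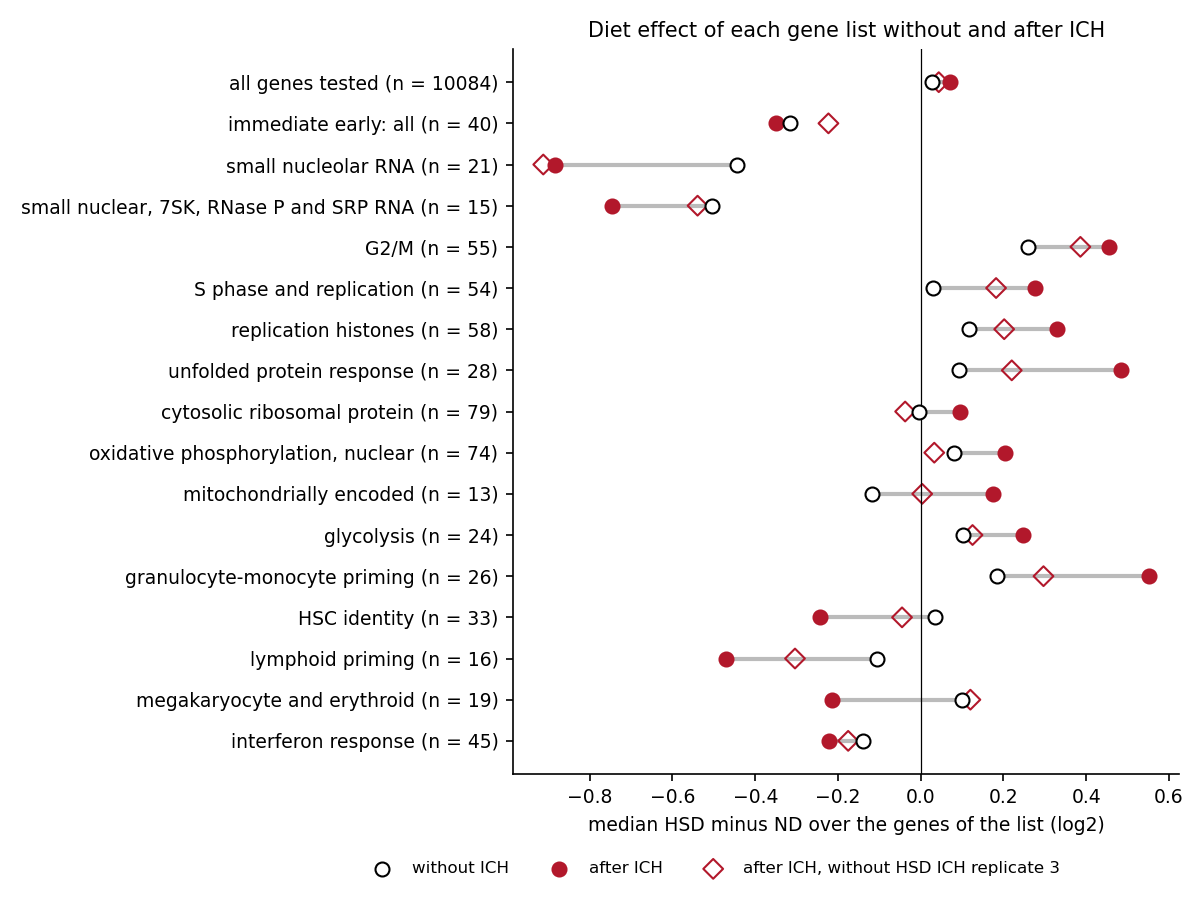
Median log2 difference between HSD and ND (horizontal axis) over the tested genes of 16 lists and of all 10084 genes (vertical axis), without ICH (open circles), after ICH (red circles) and after ICH with HSD ICH replicate 3 left out (diamonds). Immediate early genes keep nearly the same median in both settings, at -0.32 and -0.35, while the unfolded protein response goes from 0.09 to 0.48, or to 0.22 without that library.

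Genes of the unfolded protein response were higher on HSD after ICH. Of 28 tested, 0 were higher and 1 was lower without ICH at an unadjusted p under 0.05 (Dnajb9, a cochaperone, at -0.54, named after its value was seen), and 20 (71.4%) were higher after ICH, beside 14.6% of all genes, or 13 without HSD ICH replicate 3. The medians were 0.09 and 0.48. The interaction was positive in 27 of 28 genes, with a median of 0.36, and 6 of them (21.4%) had an unadjusted p under 0.05, beside 2.85% of all genes. Without HSD ICH replicate 3 the median was 0.13 and 4 genes stood at that threshold, beside 1.71% of all genes. That library had the highest level of the list, at 0.87 relative to the ND mean on the log2 scale, against 0.20 and 0.26 for the other HSD ICH libraries and -0.06 to -0.02 for ND ICH. The count was 13 without HSD ICH replicate 1 and 3 without HSD replicate 2 or HSD replicate 3. Over all genes, 536, 233 and 356 were positive in these fits in turn, against 287 with all libraries. Without ND replicate 1 and HSD replicate 2 the median was 0.31 and the count 1, and a fit with library weights gave a median of 0.097 and a count of 3. In these 141 and 523 of all genes were positive.

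Hspa5, the main chaperone of the endoplasmic reticulum, had 402, 379 and 402 CPM in ND, 484, 435 and 373 CPM in HSD, 271, 270.4 and 309 CPM in ND ICH and 399, 406 and 678 CPM in HSD ICH. HSD ICH libraries lay above ND ICH libraries, and the diets overlapped without ICH. Its interaction was 0.64 (95% interval 0.11 to 1.17, unadjusted p = 0.0211, limma), and 0.39 without HSD ICH replicate 3 (unadjusted p = 0.0181, limma). Edem1, which marks misfolded glycoproteins for degradation, was at 36.6 ± 3.26 CPM in ND ICH and 62.0 ± 19.9 CPM in HSD ICH, against 39.9 ± 2.11 CPM in ND and 42.0 ± 2.17 CPM in HSD (SD, n = 3 each). Its interaction was 0.64, or 0.39 without HSD ICH replicate 3. Syvn1, the ubiquitin ligase of that degradation, had an interaction of 0.48 (0.36), and Dnajc3, a cochaperone of Hspa5 that also checks the kinase PERK, of 0.53 (0.31), where the values in parentheses leave out HSD ICH replicate 3.

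The classical control element of this response, the ERSE, is CCAAT and CCACG with 9 bases between them, and it was searched on both strands in the same windows. It stood in 8 of 23 genes of the list with a window (34.8%), beside 37 of 27025 genes (0.137%). The median interaction was 0.36 in the 8 genes and 0.35 in the other 15. The windows of the 3 with the smallest interaction p are printed 5′ to 3′ with the element in capitals, since they show it in genes of 3 different roles. They lie at chr19:6046326-6046625, chr2:34771840-34772139 and chr14:118937682-118937981 of GRCm38.p6, all on the plus strand.
Syvn1: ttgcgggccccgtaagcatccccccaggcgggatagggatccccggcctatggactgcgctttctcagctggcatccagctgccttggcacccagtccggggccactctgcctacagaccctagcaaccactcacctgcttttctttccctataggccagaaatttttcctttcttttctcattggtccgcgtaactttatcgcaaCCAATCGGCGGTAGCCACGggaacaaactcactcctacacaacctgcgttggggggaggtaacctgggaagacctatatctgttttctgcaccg
Hspa5: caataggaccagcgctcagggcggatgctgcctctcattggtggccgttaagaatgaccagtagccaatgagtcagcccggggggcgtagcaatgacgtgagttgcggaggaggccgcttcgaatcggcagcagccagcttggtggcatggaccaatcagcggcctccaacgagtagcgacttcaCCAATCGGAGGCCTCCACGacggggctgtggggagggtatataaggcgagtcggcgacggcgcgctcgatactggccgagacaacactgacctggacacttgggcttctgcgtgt
Dnajc3: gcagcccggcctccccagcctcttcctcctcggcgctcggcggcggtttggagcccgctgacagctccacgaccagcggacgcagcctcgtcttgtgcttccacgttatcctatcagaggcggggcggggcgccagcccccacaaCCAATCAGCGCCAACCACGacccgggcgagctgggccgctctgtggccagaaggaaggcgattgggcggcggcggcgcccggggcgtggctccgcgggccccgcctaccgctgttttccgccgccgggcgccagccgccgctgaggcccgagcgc
The first base of the element lies 44, 65 and 105 bases before the start of Syvn1, Hspa5 and Dnajc3. A match describes these letters and is no evidence that a factor bound them here.

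Ribosomal protein genes and respiratory chain genes had small interactions that depended on single libraries. Of 79 cytosolic ribosomal protein genes, 6 had a positive interaction at an unadjusted p under 0.05, beside 2.85% of all genes, with a median of 0.13. Without HSD ICH replicate 3 the count was 1, beside 1.71% of all genes, with a median of -0.0041. The count was 0 without ND replicate 1, 1 without HSD replicate 1 or 2, and 2 without ND replicate 2. It was also 2 without ND ICH replicate 1, with a median of 0.02. Over all genes, 167 to 297 were positive in these fits, against 287 with all libraries. Rps2, of the small subunit, had 513 ± 31.0 CPM in ND, 464 ± 16.4 CPM in HSD, 417 ± 59.7 CPM in ND ICH and 492 ± 27.2 CPM in HSD ICH (SD, n = 3 each). Its interaction was 0.39, and 0.35 without HSD ICH replicate 3. Among 74 nuclear-encoded respiratory chain and ATP synthase genes 2 (2.70%) had a positive interaction at that threshold, near the 2.85% of all genes, and the median went from 0.13 to -0.02 without HSD ICH replicate 3. Atp5g1, a subunit of the ATP synthase rotor, was the first of them by p, with an interaction of 0.61 (SE 0.198) and of 0.48 without the library. All 13 mitochondrially encoded genes had positive interactions, with a median of 0.29 and no unadjusted p under 0.05, and the median was 0.08 without HSD ICH replicate 3. Among 24 glycolysis genes only Gpi1 (4.17%), the isomerase of the second step of the pathway, had an unadjusted interaction p under 0.05, beside 4.92% of all genes. Its interaction was 0.50, or 0.27 without that library.

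Genes of stem cell identity were lower on HSD after ICH in 28 of 33 cases, and without ICH in 13. Of 33 HSC identity genes, 0 stood at an unadjusted p under 0.05 without ICH, and 12 (36.4%) were lower, beside 6.29% of all genes, and 1 higher (Gfi1, a repressor that also directs granulocytes, named after its value was seen) after ICH, or 6 lower and 2 higher without HSD ICH replicate 3. The medians were 0.04 and -0.24. Interactions had a median of -0.30, with 5 genes negative at an unadjusted p under 0.05, beside 2.07% of all genes. Without HSD ICH replicate 3 the median was -0.09, with 3 genes negative, beside 1.53% of all genes. The number of negative genes was 10 and 11 without HSD ICH replicate 1 and 2, and 2 without HSD replicate 2. It was 3 when replicate 1 of ND or of HSD, or replicate 2 or 3 of ND ICH, was left out. Over all genes, 360 and 338 were negative without HSD ICH replicate 1 and 2, and 152 to 214 in the other fits named, against 209 with all libraries. HSD ICH replicate 3 held the lowest level of the list, at -0.94 relative to the ND mean on the log2 scale. The other HSD ICH libraries stood at -0.21 and -0.18, and ND ICH at -0.16 to -0.12. In bulk RNA, fewer cells of a type and less RNA per cell cannot be told apart.

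Eya2, a transcriptional coactivator and phosphatase, had 26.3, 34.5 and 39.7 CPM in ND, 37.1, 38.1 and 31.1 CPM in HSD, 26.7, 38.9 and 32.6 CPM in ND ICH and 23.9, 24.1 and 14.4 CPM in HSD ICH. The groups overlapped without ICH, and HSD ICH libraries lay below ND ICH libraries. The interaction was -0.76 (95% interval -1.39 to -0.12, unadjusted p = 0.0226, limma), and -0.52 without HSD ICH replicate 3. Robo4, a surface receptor that helps to keep stem cells in the marrow, was at 11.9 ± 1.12 CPM in ND ICH and 6.69 ± 2.59 CPM in HSD ICH, and at 13.3 ± 2.21 CPM in ND and 14.9 ± 4.03 CPM in HSD (SD, n = 3 each). Its interaction was -0.995 (SE 0.364), or -0.67 without that library.

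Of 16 lymphoid priming genes, 14 had a lower mean on HSD without ICH and 12 after ICH, with medians of -0.10 and -0.47. At an unadjusted p under 0.05, 10 (62.5%) were lower after ICH, beside 6.29% of all genes, or 9 without HSD ICH replicate 3, and 0 without ICH. Interactions had a median of -0.37, with 3 genes negative at that threshold, beside 2.07% of all genes. Without HSD ICH replicate 3 the median was -0.15, with 1 negative and 1 positive gene, beside 1.53% and 1.71% of all genes. The number of negative genes was 8 without HSD ICH replicate 1, and 1 without HSD replicate 2, ND ICH replicate 2 or ND ICH replicate 3. It was 2 when ND replicate 1 or 2 or HSD replicate 1 was left out. Over all genes, 360 were negative without HSD ICH replicate 1 and 152 to 214 in the other fits named, against 209 with all libraries. The 3 were Lck, the kinase of T cell receptor signaling, with an interaction of -0.74 (-0.54 without HSD ICH replicate 3), and the lymphoid GTPases Gimap6 and Gimap1, with -0.76 and -0.66. Without that library the values of Gimap6 and Gimap1 were -0.48 and -0.43 (unadjusted p = 0.0549 and 0.0663, limma). Gimap8, of the same family and outside the list, had 16.8 ± 0.794 CPM in ND ICH and 8.66 ± 2.74 CPM in HSD ICH, against 16.5 ± 3.15 CPM in ND and 17.5 ± 0.396 CPM in HSD (SD, n = 3 each). Its interaction was -1.06 (95% interval -1.66 to -0.47, unadjusted p = 0.00206, limma), or -0.82 without HSD ICH replicate 3.

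Granulocyte-monocyte priming genes were higher on HSD after ICH in 24 of 26 cases, and without ICH also in 24. Of 26 tested, 14 (53.8%) were higher on HSD after ICH at an unadjusted p under 0.05, beside 14.6% of all genes, or 9 without HSD ICH replicate 3, and 0 without ICH. The medians were 0.18 without ICH and 0.55 after ICH. The median interaction was 0.48, or 0.09 without HSD ICH replicate 3, and 0 of 26 genes had an unadjusted interaction p under 0.05 (limma). Without HSD ICH replicate 2, 4 genes did, where 499 of all genes were positive, against 287 with all libraries. The level of the list was 1.83 in HSD ICH replicate 3 relative to the ND mean on the log2 scale. It was 1.02 and 0.62 in the other HSD ICH libraries, 0.46 to 0.66 in ND ICH, 0.08 to 0.51 in HSD and -0.30 to 0.48 in ND. So the groups overlapped in both settings.

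**Figure D4:**
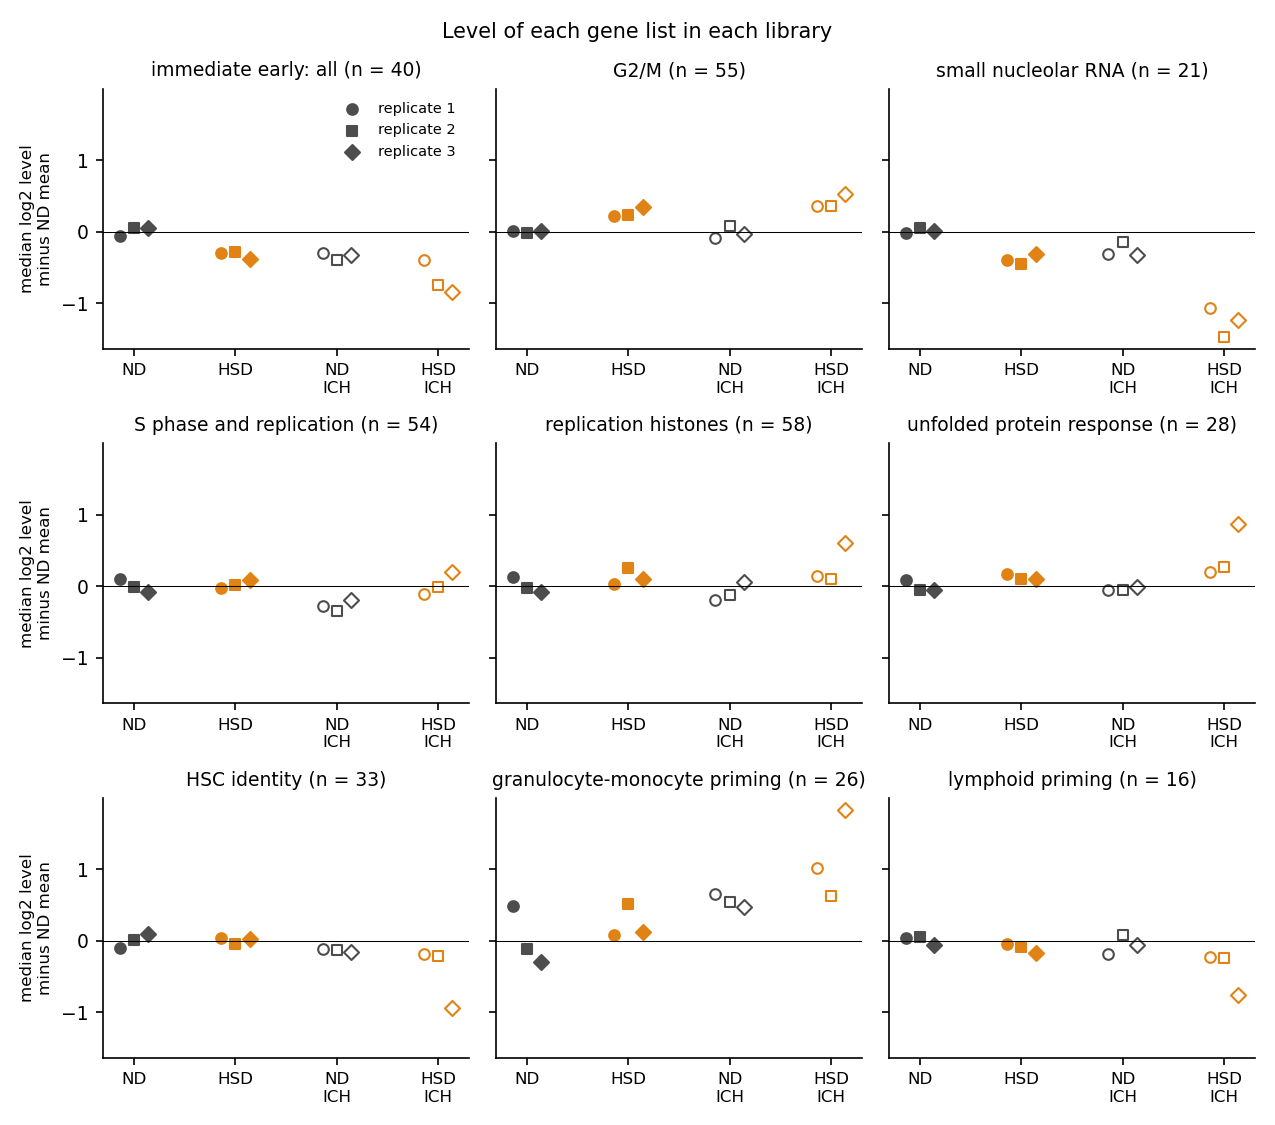
Level of 9 gene lists in each library, as the median over the tested genes of the log2 level minus its mean in ND (vertical axis), by group (horizontal axis; filled points without ICH, open points after ICH, orange for HSD, and shapes for replicates). G2/M genes stand higher and small nucleolar RNAs lower on HSD in both settings, and HSD ICH replicate 3 (diamond) stands at -0.94 for HSC identity and 1.83 for granulocyte-monocyte priming.

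Among all genes with a symbol that are neither predicted genes, pseudogenes nor small RNAs, Clnk had the smallest interaction p of the negative ones. Clnk, an adaptor of immunoreceptor signaling, was at 16.4, 17.4 and 15.7 CPM in ND, 17.7, 20.6 and 19.9 CPM in HSD, 19.1, 25.1 and 19.7 CPM in ND ICH and 13.9, 11.7 and 7.66 CPM in HSD ICH. HSD libraries lay above ND libraries without ICH and below them after it. It fell by 0.94 on the log2 scale after ICH (adjusted p = 0.0360, limma), its difference without ICH was 0.22, and its interaction was -1.17 (95% interval -1.71 to -0.62, unadjusted p = 0.000526, adjusted p = 0.813, limma). Without HSD ICH replicate 3 the interaction was -0.93, and the fall after ICH did not pass (adjusted p = 0.0633, limma). Vldlr, a receptor of very low density lipoprotein, was at 48.3 ± 14.2 CPM in ND ICH and 25.6 ± 4.86 CPM in HSD ICH, and at 46.0 ± 4.98 CPM in ND and 51.0 ± 2.58 CPM in HSD (SD, n = 3 each). Its interaction was -1.04 (-0.87 without HSD ICH replicate 3). Lfng, which tunes Notch receptors by adding sugars, had an interaction of -0.74 (-0.62), Pim2, a survival kinase, of -1.01 (-0.90), and Gabarapl1, which takes part in autophagy, of -0.54 (-0.44). Pim2 exceeded 10 CPM only in HSD replicates 1 and 3 and in ND ICH replicate 3. It thus passed the filter through groups whose high values favor a negative interaction, and its value is no independent support for one.

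Ryr1, a calcium release channel best known from skeletal muscle, had an interaction of -1.10 (SE 0.284, or -0.89 without HSD ICH replicate 3), with 11.5 ± 1.55 CPM in ND ICH and 6.86 ± 1.83 CPM in HSD ICH against 7.92 ± 1.68 CPM in ND and 10.2 ± 0.703 CPM in HSD (SD, n = 3 each). Ttn, the giant protein of muscle fibers, was the other such gene, at -0.75 (SE 0.234, or -0.68). Ryr1 exceeded 10 CPM only in HSD replicates 1 and 2 and in the ND ICH libraries. Its passing of the filter thus favors a negative interaction, and its value is no independent support for one. The summed level of 24 muscle genes was 32.0 to 42.3 CPM in libraries without ICH, 112 to 115 CPM in ND ICH and 58.0 to 88.1 CPM in HSD ICH. The part of muscle RNA in these values was not tested.

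Of the positive ones, Rps23rg1 had the smallest interaction p. It was at 25.6, 23.7 and 24.8 CPM in ND, 18.5, 17.8 and 18.1 CPM in HSD, 22.02, 24.2 and 23.6 CPM in ND ICH and 23.5, 25.6 and 28.0 CPM in HSD ICH, so that the diets separated only without ICH. Its interaction was 0.57 (95% interval 0.30 to 0.85, unadjusted p = 0.000593, limma), or 0.51 without HSD ICH replicate 3, but Rps23rg1 is a copy of Rps23 and its reads are uncertain. Phf19, which brings Polycomb repressive complex 2 to its targets, was at 12.04, 11.7 and 11.7 CPM in ND, 10.4, 9.55 and 10.5 CPM in HSD, 9.01, 7.40 and 10.3 CPM in ND ICH and 12.6, 14.04 and 13.1 CPM in HSD ICH. HSD libraries lay below ND libraries without ICH and above them after it. The interaction of Phf19 was 0.77 (95% interval 0.38 to 1.16, unadjusted p = 0.000986, limma), with the same value without HSD ICH replicate 3. Tmem39a, a membrane protein of the endoplasmic reticulum, rose by 0.69 on the log2 scale after ICH (adjusted p = 0.0288, limma), with a difference of 0.05 without ICH and an interaction of 0.63. That rise did not pass without HSD ICH replicate 3 (adjusted p = 0.0738, limma), and the interaction was then 0.49.

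Outright reversals at the level of both diet effects were few. Of the 4 genes with an unadjusted p under 0.05 in opposite directions, Fam177a alone is neither a predicted gene, a clone nor a pseudogene. It was at 29.5, 36.5 and 33.0 CPM in ND, 41.8, 44.2 and 38.6 CPM in HSD, 38.7, 40.9 and 37.6 CPM in ND ICH and 35.5, 31.5 and 26.4 CPM in HSD ICH. HSD libraries lay above ND libraries without ICH and below them after it, by 0.33 and -0.33 on the log2 scale. The interaction was -0.66 (95% interval -1.01 to -0.31, unadjusted p = 0.00131, limma), or -0.55 without HSD ICH replicate 3. Fam177a has a near-identical copy, Fam177a2, so the split of reads between them is uncertain.

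S100a9, a calcium-binding protein of neutrophils and monocytes that the study follows, had an interaction of 1.08 (95% interval 0.04 to 2.11, unadjusted p = 0.0423, limma), or 1.27 without HSD ICH replicate 3. It was at 7.14, 11.1 and 22.1 CPM in ND, 7.48, 6.13 and 5.49 CPM in HSD, 14.1, 13.3 and 8.08 CPM in ND ICH and 13.5, 16.9 and 10.01 CPM in HSD ICH. The groups overlapped in both settings, and the ND libraries were spread the widest of the 4 groups.

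**Figure D5:**
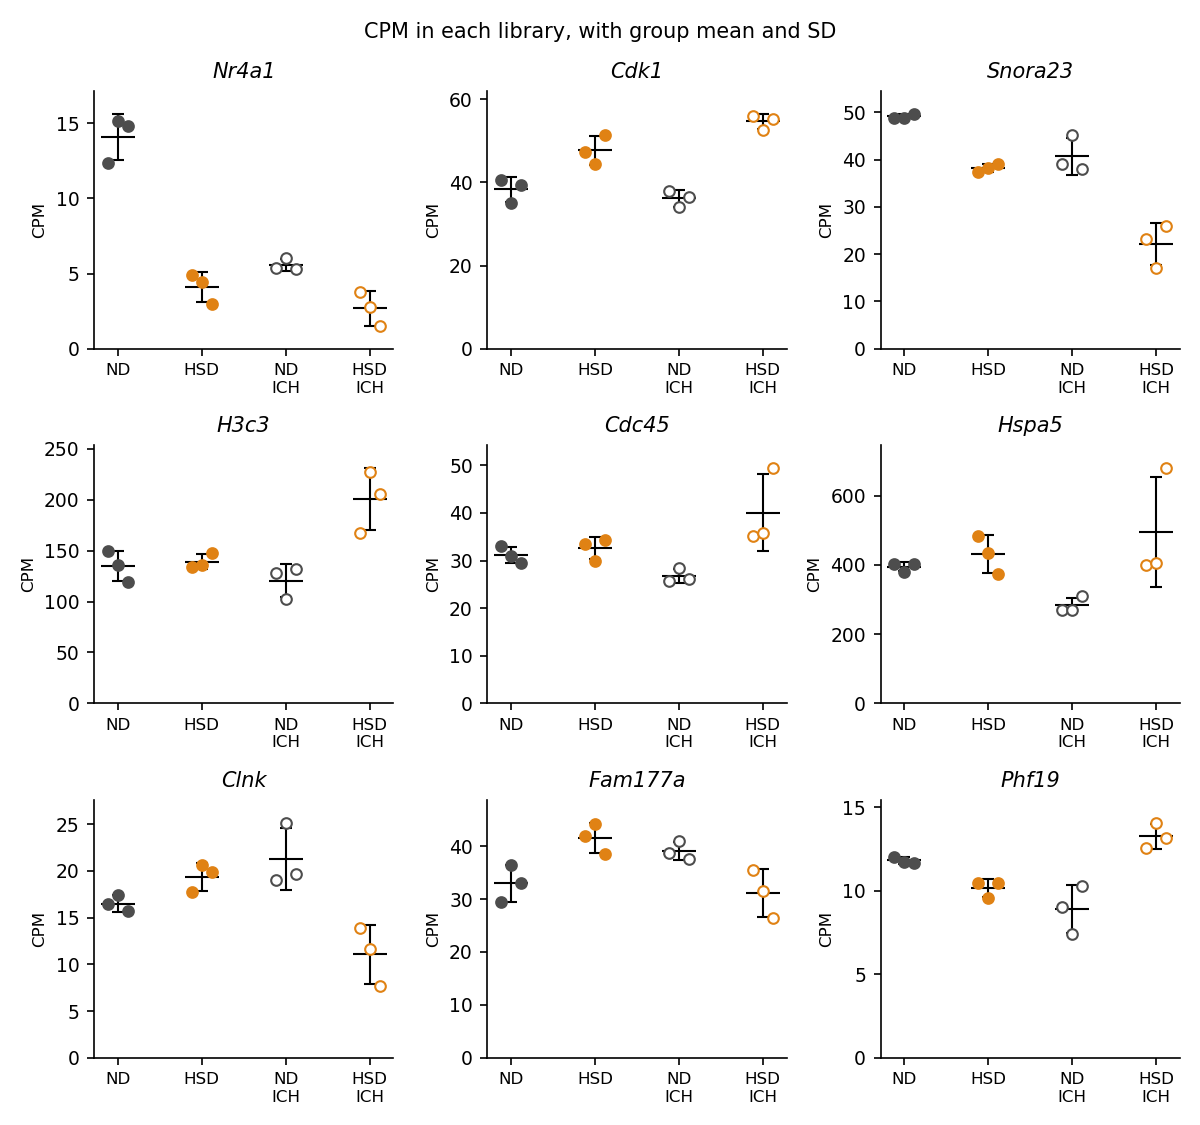
CPM of 9 genes (vertical axes) in each library by group (horizontal axes), with the group mean and SD. Nr4a1, Cdk1 and Snora23 keep the direction of the diet effect, and H3c3, Cdc45 and Hspa5 separate by diet only after ICH. In Clnk, Fam177a and Phf19 the order of the HSD and ND libraries turns. No interaction of the 9 genes passed the adjusted test.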

How the data were processed

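RNA was taken from sorted HSPCs of 4 groups with 3 libraries each, and libraries were made with the SMART-Seq Stranded kit. The authors aligned the reads to mm10 with Rsubread, counted them per gene with featureCounts, and deposited CPM scaled by TMM factors in edgeR 3.24.3 as the submitters' processing notes and methods give it. The deposited CPM of 20792 genes were whole multiples of the value of 1 read within a tolerance of 0.01, in all values of 11 libraries and all but 2 values of HSD ICH replicate 3, which gave whole read counts, less surely for HSD replicate 2, where 1 read is worth close to 0.1 CPM.

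Values were tested as log2(CPM + 0.5) with limma 3.58.1 (R 4.3.3, trend, empirical Bayes) in 1 fit of all 12 libraries over 10084 genes above 10 CPM in at least 3 libraries, so fold changes of low genes are understated. The p-values were adjusted by Benjamini and Hochberg over all genes tested, and they measure only the spread between these libraries. edgeR 4.0.16 and DESeq2 1.42.0 on the recovered reads were alternatives, beside other pseudocounts, filters, scalings, library weights, linear CPM, a replicate block and each library left out. Scripts were tested on simulated data. Genes were named by a rule: the 10 smallest interaction p values in each direction without predicted genes, clones, pseudogenes and small RNAs, up to 4 genes of each list, those the study follows, and those of the strongest opposite diet effects. Gene lists, members and this rule were chosen with earlier results of these data known. Genes without a symbol (423) were named from GENCODE where possible (182). Replicate numbers were not treated as pairs in the main fit. The deviations of libraries with the same number correlated between -0.271 and 0.152, and those with different numbers between -0.304 and 0.332. With 3 libraries a group these values cannot exclude a pairing. Some genes of the lists are not reported here.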

Additional observations from a re-analysis of the deposited data

Results flagged for a closer look

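Of the 74 genes named by the rule, 9 had every HSD library on one side of every ND library without ICH and on the other side after ICH. Each also had an unadjusted interaction p under 0.05. The rule names genes by a small interaction p or by opposite diet effects, so it favors this pattern, and the 9 are not evidence of an excess. None of the interactions passed the adjusted test (adjusted p = 0.813, limma), and such a reversal of non-overlapping groups was found in 0.476% of all genes.

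The interaction was -1.17 for Clnk, -0.66 for Fam177a, -0.63 for Cebpzos and -0.60 for Pdgfrb on the log2 scale, with HSD above ND without ICH and below it after ICH. It was 0.77 for Phf19, 0.57 for Ctdspl, 0.46 for Prim1, 0.44 for Acat2 and 0.30 for Ezh2, with the opposite order. Without HSD ICH replicate 3 the values were -0.93 for Clnk, -0.38 for Pdgfrb and 0.49 for Ctdspl. Pdgfrb, a receptor of mesenchymal and perivascular cells, was at 42.7 CPM in that library against 67.5 and 68.4 CPM in the other HSD ICH libraries. Phf19 and Ezh2 both belong to Polycomb repressive complex 2 or bind it.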

How the results depend on the processing

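No gene had an interaction past an adjusted p of 0.05 under any of the 25 alternatives, each of which also left the direction of all 74 named genes as it was. Counts at the looser thresholds moved more. The 28 genes past the study's threshold became 317 with no filter, 245 with CPM above 1 in at least 3 libraries and 47 by edgeR's quasi-likelihood test, and ranged from 9 (without HSD ICH replicate 3) to 78 (without HSD ICH replicate 1) when 1 library was left out. On linear CPM that count could not be given. The 496 genes at an unadjusted p under 0.05 became 1735 with no filter, 1302 with CPM above 1, 1014 with library weights and 269 without ND replicate 1 and HSD replicate 2, and ranged from 319 (without ND replicate 1) to 896 (without HSD ICH replicate 1). Called genes without ICH, 0 in the fit of all libraries, numbered 1 with no filter, 1 with CPM above 1, 260 with library weights and 8 by DESeq2, and 0 to 2 with 1 library left out. Called genes after ICH, 56, became 296 with no filter, 120 with CPM above 1, 35 with sum scaling, 202 with library weights, 528 by DESeq2, 29 on linear CPM and 21 without ND replicate 1 and HSD replicate 2, and ranged from 8 (without HSD ICH replicate 2) to 190 (without HSD ICH replicate 1). With the replicate block, 26 genes were called after ICH, 0 had an interaction past the adjusted threshold and 452 an unadjusted p under 0.05. The correlation of the diet effects was 0.197 with no filter and 0.225 with CPM above 1, and ranged from 0.310 (without ND replicate 3) to 0.451 (without ND replicate 1). The cause was not tested. The alternatives for the diet effects, the correlation and the unadjusted count were chosen after seeing the data.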

Other observations

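Other lists held single genes at an unadjusted interaction p under 0.05, where 4.92% of all genes stood, and none past the adjusted test. Among 32 chromatin regulators, Ezh2 and Suz12, the catalytic subunit and a core subunit of Polycomb repressive complex 2, had interactions of 0.30 and 0.42 on the log2 scale (0.29 and 0.35 without HSD ICH replicate 3), beside a list median of 0.05. Suz12 was at 103 ± 3.10 CPM in ND, 94.1 ± 12.2 CPM in HSD, 86.9 ± 5.78 CPM in ND ICH (SD, n = 3 each), and at 97.6, 105 and 117 CPM in HSD ICH. Among 25 cytokine and niche receptors, Il1r1, the receptor of interleukin 1, had an interaction of -0.79 (-0.58 without HSD ICH replicate 3), with 50.7 ± 8.84 CPM in ND ICH and 29.0 ± 6.96 CPM in HSD ICH. Its values without ICH were 42.9 ± 2.92 CPM in ND and 42.3 ± 2.95 CPM in HSD.

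Of 18 genes of osmotic and sodium handling, 1 (5.56%) had an unadjusted interaction p under 0.05, near the 4.92% of all genes. It was negative, and the list median was -0.01. This gene was Slc12a7, a potassium and chloride cotransporter that regulates cell volume, at -0.55 (-0.42 without HSD ICH replicate 3). Of 26 genes of calcium and NFAT signaling, 7.69% stood at that threshold, beside 4.92% of all genes, with 1 positive and 1 negative. Ppp3ca, the catalytic subunit of calcineurin, had an interaction of 0.40 (0.32 without HSD ICH replicate 3). Its substrate Nfatc2 had one of -0.56, which was -0.34 without that library (unadjusted p = 0.112, limma). Interferon response genes (45 tested) had a median diet difference of -0.14 without ICH and -0.22 after ICH. Of them, 0 had an unadjusted interaction p under 0.05, beside 4.92% of all genes.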
